A study of Mus musculus with 9 samples.

Results

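Cholesterol and fatty acids are built from acetyl-CoA, and 39 genes of that synthesis and its control were followed here in mouse CD8+ T cells, lymphocytes that kill infected and tumour cells. The genes were chosen by name, with earlier results of these data known. They are enzymes of the mevalonate, sterol and fatty acid routes, the proteins that control SREBP, and genes of the LXR and export side. All 39 were among the 20618 genes measured. Their shares are set beside those of all genes as description only. RNA was sequenced from wild-type cells kept for 24 h in 2 mM inosine with added hypoxanthine, in 2 mM inosine, or in 2 mM glucose, with 3 libraries per medium and 9 in all. The libraries of the first medium are also called hypoxanthine libraries here. All media held 10% dialyzed FBS, so that small molecules of the serum had been removed, and live cells (about 80%) were sorted before RNA extraction. The dose of hypoxanthine is printed in the labels with an incomplete unit and is not given here. Inosine is hypoxanthine, a purine base, joined to the sugar ribose. The source of the cells is given as primary cells, with 1 common batch label, and whether the 3 libraries of each medium are separate mice or cultures is not stated. The p-values therefore reflect the spread among the libraries at hand, which may be technical.

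SREBP proteins are transcription factors made as membrane proteins of the endoplasmic reticulum. SCAP escorts them to the Golgi, where they are cleaved and released to the nucleus, and INSIG proteins hold SCAP back when sterols are plentiful. SREBP2, from Srebf2, mainly drives cholesterol synthesis and uptake, SREBP1, from Srebf1, mainly drives fatty acid synthesis and desaturation, and LXR receptors answer to oxidised sterols by raising cholesterol export. Activated T cells are known to switch this synthesis on as they grow and divide.

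Promoter sequences are shown for 4 of the genes, because they carry the letters of the sterol regulatory element or belong to genes with large differences on the log2(FPKM + 1) scale. RefSeq windows from 250 bases before to 50 bases after the start of transcription, on GRCm38.p6, were matched for 31 of the 39 genes (Fdps, Fdft1, Sqle, Stard4, Scd1, Scd2, Fads1 and Abcg1 were not in the table used). Each window is printed 5′ to 3′ on the strand of its gene, and capitals mark every match, on either strand, to TCACNCCAC or TCACCCC (sterol regulatory element), CCAAT (bound by NF-Y) or GGGCGG (bound by SP1). Overlapping matches run together. Hmgcs1, the cytosolic HMG-CoA synthase, lies at chr13:119690101-119690400 on the plus strand, and Srebf2 at chr15:82147019-82147318 on the plus strand. Lss, the lanosterol synthase, lies at chr10:76531355-76531654 on the plus strand, and Mvd, the diphosphomevalonate decarboxylase, at chr8:122443373-122443672 on the minus strand.
Hmgcs1: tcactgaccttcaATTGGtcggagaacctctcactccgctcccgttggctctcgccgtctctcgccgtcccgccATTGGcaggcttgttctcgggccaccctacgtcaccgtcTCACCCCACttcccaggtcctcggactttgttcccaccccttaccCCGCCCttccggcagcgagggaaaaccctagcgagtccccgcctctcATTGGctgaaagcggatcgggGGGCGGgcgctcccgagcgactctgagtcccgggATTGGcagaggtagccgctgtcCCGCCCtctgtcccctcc
Srebf2: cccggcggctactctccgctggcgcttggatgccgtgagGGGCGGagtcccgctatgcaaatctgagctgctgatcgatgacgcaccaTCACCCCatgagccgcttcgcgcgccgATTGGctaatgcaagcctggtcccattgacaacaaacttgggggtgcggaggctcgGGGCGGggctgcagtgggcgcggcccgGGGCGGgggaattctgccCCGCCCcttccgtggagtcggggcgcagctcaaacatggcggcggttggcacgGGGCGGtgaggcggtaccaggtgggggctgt
Lss: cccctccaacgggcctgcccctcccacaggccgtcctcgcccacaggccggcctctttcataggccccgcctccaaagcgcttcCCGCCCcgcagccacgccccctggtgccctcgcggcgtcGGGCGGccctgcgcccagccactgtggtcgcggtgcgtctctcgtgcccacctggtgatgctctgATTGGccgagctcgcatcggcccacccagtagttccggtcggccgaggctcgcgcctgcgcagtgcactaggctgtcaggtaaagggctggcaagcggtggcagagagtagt
Mvd: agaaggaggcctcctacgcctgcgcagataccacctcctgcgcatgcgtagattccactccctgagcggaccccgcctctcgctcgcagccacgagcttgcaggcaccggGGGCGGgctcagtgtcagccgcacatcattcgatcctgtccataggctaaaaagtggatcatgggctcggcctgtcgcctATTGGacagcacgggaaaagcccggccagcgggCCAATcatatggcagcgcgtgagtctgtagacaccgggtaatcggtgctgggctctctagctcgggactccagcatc
The Hmgcs1 window held 1 stretch that matched both forms of the sterol element and 4 CCAAT matches, and the Srebf2 window held 1 match to TCACCCC. The longer form TCACNCCAC was found in 1 of the 31 genes (3.23%), against 1.44% of 27025 genes with a promoter in the table, and TCACCCC in 2 of 31 (6.45%), against 5.61%. CCAAT was found in 24 of the 31 genes (77.4%), against 41.1% of all genes and 43.8% of the 8066 with a mean of at least 1 FPKM. GGGCGG was found in 25 of 31 (80.6%), against 38.2% of all genes and 70.0% of those expressed. Of the 18 genes with a window that fell with hypoxanthine against inosine, 15 held CCAAT, and 9 of the 13 others did. A match of letters is a description of the window and was not tested as a binding site.

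Depth ran from 30857336 to 50107284 recovered reads per library, and 16245 to 17217 genes were above 0. All 39 genes were above 0 in every library, and 36 had a mean of at least 1 FPKM (sequenced fragments, scaled to library size and to the length of the gene). The summed FPKM of 7 markers of CD8 T cells was 1317.3 to 1395.1 with inosine plus hypoxanthine, against 815.5 to 1041.2 with inosine and 883.5 to 952.9 with glucose. The markers did not all go one way: Cd3g averaged 358.7 FPKM with inosine plus hypoxanthine, 203.7 with inosine and 195.1 with glucose, and Lck 174.8 FPKM with inosine plus hypoxanthine, 209.3 with inosine and 207.7 with glucose. Cd3e, Cd3d, Cd8a and Cd8b1 had higher means with hypoxanthine, like Cd3g, and Cd2 a lower mean, like Lck. The part of this in the results was not tested. Markers of CD4 T, B, myeloid, dendritic, NK, erythroid and fat cells were low, with sums of at most 3.86 FPKM for a list in any library. No list had a measured marker at 0 in all 9 libraries. Mitochondrial genes took 6.5% of FPKM in inosine replicate 2 and 5.84% in inosine plus hypoxanthine replicate 2, and 4.03% to 4.82% in the other libraries. The numbers of the 39 genes called with hypoxanthine are therefore also given without those 2 libraries. Counts by role, by overlap and of other genes in the lists are not. In bulk RNA, fewer cells that express a gene and less of its RNA per cell cannot be told apart.

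With hypoxanthine added to inosine, 21 of the 30 genes in the 4 roles of synthesis fell, 1 rose and 8 did not pass, and of the 5 genes of SREBP control and sterol transport 1 fell. Against inosine, 22 of the 39 genes fell, 3 rose and 14 did not pass (limma on log2(FPKM + 1), adjusted p under 0.05 over all genes). Of all genes, 9.59% fell and 11.7% rose in that comparison (21.3% in either direction), and among the 9947 genes of at least 1 FPKM 16% fell and 16.9% rose. The median log2 difference of the 39 genes was -0.36, beside 0.00 over all genes. The libraries of both media did not overlap, with hypoxanthine the lower, for 24 of the 39 genes, against 15.6% of all genes. Without the 2 libraries of high mitochondrial share 22 genes fell and 2 rose. The settings other than single libraries left out, which include this one, gave 3576 to 4645 calls over all genes in either direction.

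Against glucose, the same inosine plus hypoxanthine libraries had 22 of the 39 genes lower, 2 higher and 15 not called, beside 9.55% of all genes lower and 10.8% higher (20.3% in either direction). Among genes of at least 1 FPKM 15.9% were lower and 15% higher. The median difference was -0.36 on the log2 scale, and 27 genes were lower with no overlap, against 17.8% of all genes. In all, 21 genes fell and 2 rose in both comparisons, which share the libraries with hypoxanthine. Elovl1 passed only against inosine, with an adjusted p of 0.0554 in limma against glucose, and Mvk only against glucose. Without the 2 libraries of high mitochondrial share 21 genes fell and 2 rose. Over all genes, the settings other than single libraries left out gave 2110 to 4571 calls in either direction.

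Inosine in place of glucose gave no call among these genes. With limma, 0 of the 39 genes passed, 0 had an unadjusted p under 0.05 and 0 passed with limma voom on recovered reads. Of all genes, 0.0097% passed and 2.83% had an unadjusted p under 0.05. Log2 differences of inosine minus glucose ran from -0.21 to 0.14 with a median of -0.01, and 37 of the 39 intervals lay within 0.5 of 0 on either side. The smallest unadjusted p was 0.0533, for Fads1, a desaturase of polyunsaturated fatty acids. Fads1 had 11.1, 8.75 and 10.1 FPKM with inosine and 11.3, 12.4 and 11.4 FPKM with glucose, the only one of the 39 genes whose libraries did not overlap, against 2.83% of all genes lower in that way. Values of single genes follow for all 3 media.

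**Figure D1:**
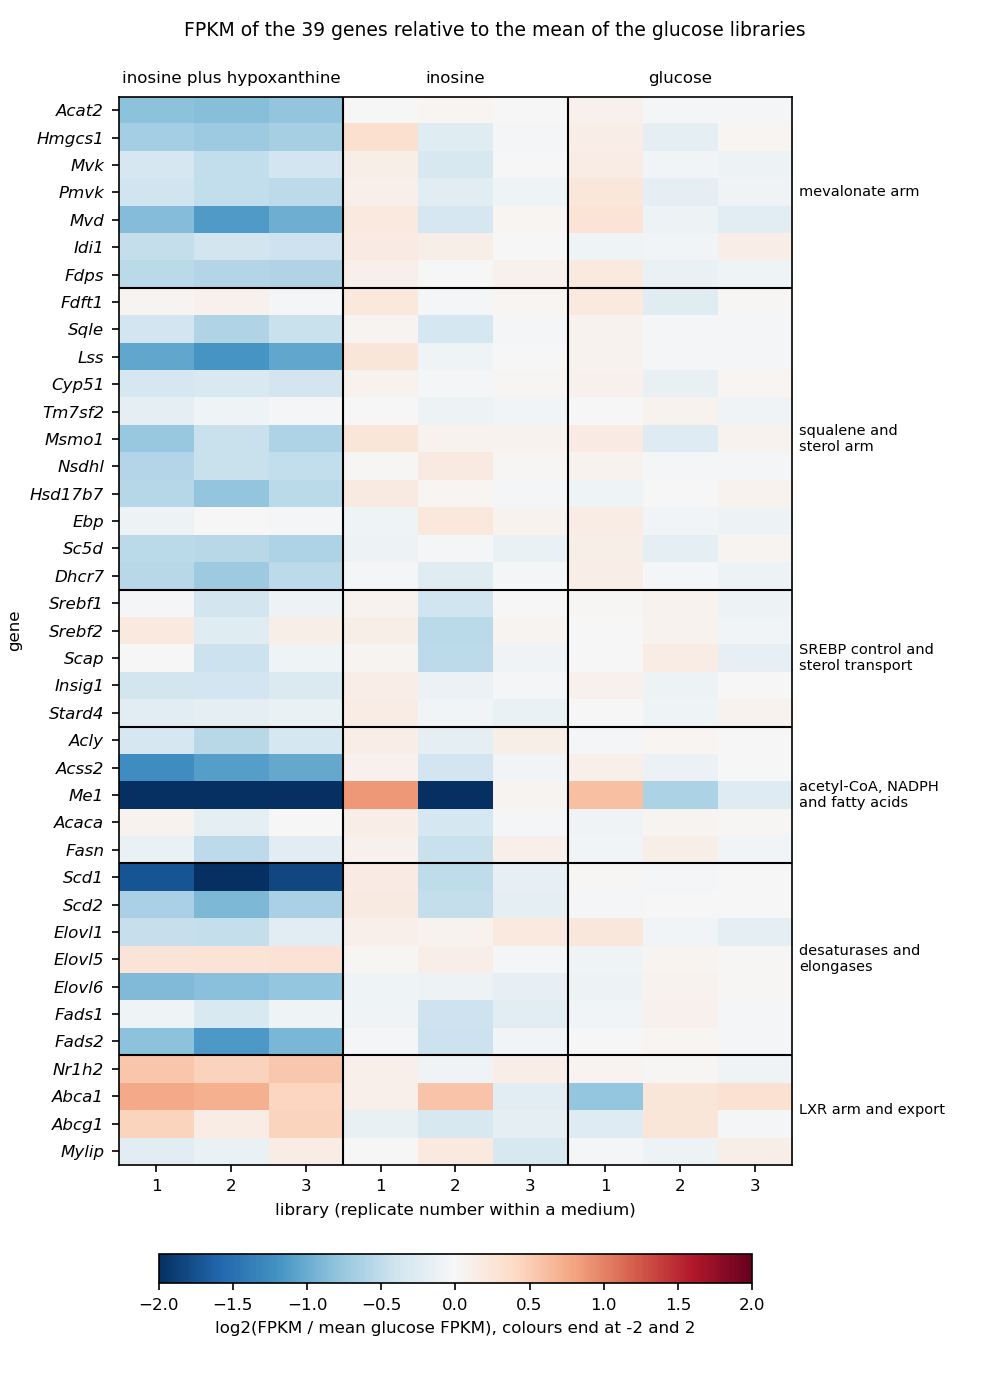
FPKM of the 39 genes (rows, by role) in the 9 libraries (columns, by medium), as log2 of FPKM over the mean of the 3 glucose libraries, with blue for lower and red for higher. The blue block of mevalonate, sterol and desaturase genes lies in the 3 inosine plus hypoxanthine libraries, while the 6 other libraries stay pale except for Me1 and Abca1, which have few reads, and for genes that were low in inosine replicate 2.

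The mevalonate route turns acetyl-CoA into farnesyl diphosphate, the building block of sterols and of the lipid anchors of proteins. All 7 of its genes had lower values with hypoxanthine in every library. Of all genes 15.6% were lower in that way than with inosine and 17.8% than with glucose. Of the 7 genes 6 fell against inosine and 7 against glucose, beside 9.59% and 9.55% of all genes. Acat2, the thiolase that joins acetyl-CoA units in the first step, had 20.0, 19.4 and 20.4 FPKM with inosine plus hypoxanthine, against 35.5, 36.3 and 35.0 FPKM with inosine and 37.2, 34.1 and 34.3 FPKM with glucose. The 3 libraries with hypoxanthine lay well below the 6 others, which lay close together. The log2 difference was -0.81 ± 0.06 (SE) against inosine and -0.79 ± 0.06 against glucose (limma adjusted p 6.69e-05 and 7.69e-05). A similar copy, Acat3, was much lower, with means of 2.43 FPKM with inosine plus hypoxanthine, 4.4 with inosine and 4.04 with glucose, and how the counting split reads between the copies is not given in the sources used here.

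Hmgcs1, which makes HMG-CoA and whose promoter is printed with the others, had 45.2, 44.0 and 45.7 FPKM with inosine plus hypoxanthine, against 90.2, 61.2 and 71.2 FPKM with inosine and 79.8, 63.4 and 74.5 FPKM with glucose. The hypoxanthine libraries were tight and below all others, while the other 6 were spread. Its log2 difference was -0.69 ± 0.14 against inosine (limma adjusted p 0.00761) and -0.67 ± 0.14 against glucose (adjusted p 0.00907). Mvd, which decarboxylates mevalonate diphosphate, had 14.8, 12.3 and 13.7 FPKM with inosine plus hypoxanthine, against 31.1, 21.3 and 27.6 FPKM with inosine and 32.7, 25.1 and 23.2 FPKM with glucose. No library with hypoxanthine reached the lowest of the others. At -0.91 ± 0.16 against inosine and -0.93 ± 0.16 against glucose (limma adjusted p 0.00433 and 0.00419) it was the largest fall of the 7 genes.

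Fdps, the farnesyl diphosphate synthase, was the most abundant of them per length. It had 114.3, 111.0 and 109.6 FPKM with inosine plus hypoxanthine, against 178.2, 166.6 and 176.4 FPKM with inosine and 190.3, 152.3 and 156.7 FPKM with glucose. The media with and without hypoxanthine did not overlap, and FPKM was 1.56 times lower than with inosine (limma adjusted p 0.00146) and 1.49 times lower than with glucose (adjusted p 0.00264). Idi1, the isomerase before it, averaged 40 ± 1.44 FPKM with inosine plus hypoxanthine, 57.3 ± 3.16 with inosine and 53.5 ± 4.74 with glucose (SD, n = 3 each), and fell in both comparisons. The kinases Mvk and Pmvk had smaller differences against inosine, -0.30 ± 0.11 and -0.39 ± 0.11 on the log2 scale. Mvk missed the threshold there (limma adjusted p 0.0853; 0.0151 without inosine replicate 2) and passed against glucose (0.0487), where it was lost without any 1 of the glucose or hypoxanthine libraries or inosine replicate 3 (up to 0.143). Pmvk passed against inosine (0.0412) and was lost without inosine replicate 1 or 3, glucose replicate 3 or any 1 hypoxanthine library (up to 0.135); against glucose (0.0251) it was lost without glucose replicate 1 or 3 or any 1 hypoxanthine library (0.0521 to 0.0911).

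**Figure D2:**
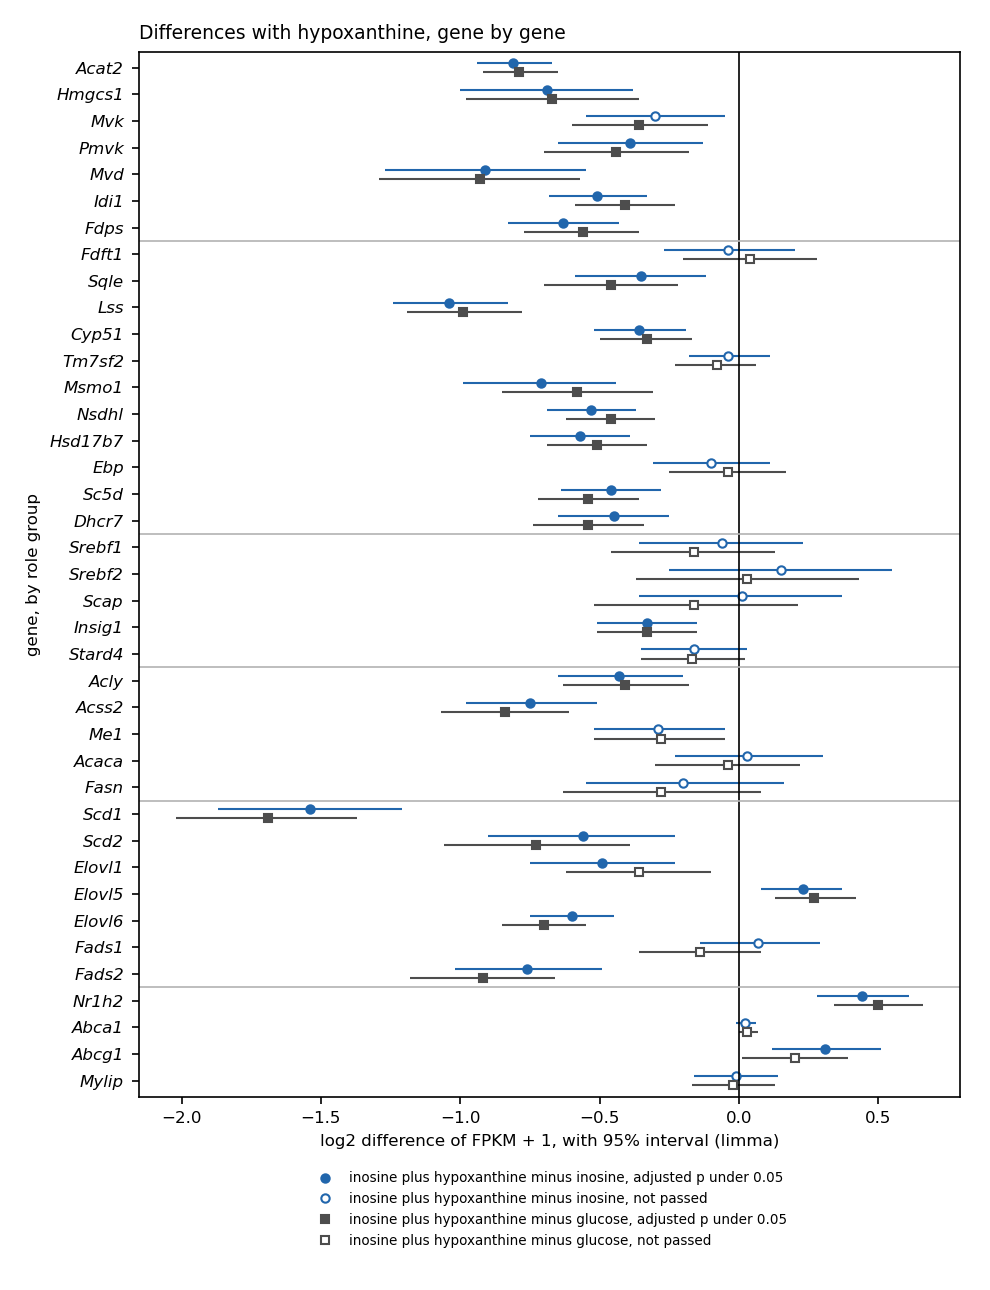
Log2 differences of FPKM + 1 (horizontal axis) for the 39 genes, with inosine plus hypoxanthine minus inosine (circles) and minus glucose (squares); lines are 95% intervals from limma, and filled symbols passed at an adjusted p under 0.05. Genes of synthesis lie mostly left of 0, down to Scd1 at -1.54 against inosine and -1.69 against glucose, and Fdft1, Tm7sf2, Ebp, Srebf1, Srebf2, Scap, Acaca and Fads1 lie near 0. The 2 comparisons share the libraries with hypoxanthine.

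From squalene to cholesterol, 8 of 11 genes fell against inosine and the same 8 fell against glucose, beside 9.59% and 9.55% of all genes. Lss, which closes squalene epoxide into lanosterol, the first sterol, had 7.51, 6.84 and 7.51 FPKM with inosine plus hypoxanthine, against 18.3, 14.5 and 15.4 FPKM with inosine and 16.3, 15 and 15 FPKM with glucose. Every library with hypoxanthine was at about the same low level. FPKM was 2.21 times lower than with inosine and 2.12 times lower than with glucose (log2 difference -1.04 ± 0.09 and -0.99 ± 0.09, limma adjusted p 0.000145 and 0.000196).

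Msmo1, the monooxygenase that takes methyl groups off lanosterol products, had 25.9, 31.9 and 28.6 FPKM with inosine plus hypoxanthine, against 51.8, 45.6 and 45.9 FPKM with inosine and 48.9, 36.4 and 45.6 FPKM with glucose. The groups did not overlap, although glucose replicate 2 came near the highest library with hypoxanthine. The log2 difference was -0.71 ± 0.12 against inosine and -0.58 ± 0.12 against glucose (limma adjusted p 0.00356 and 0.00983). Nsdhl and Hsd17b7, which act after Msmo1 in removing those methyl groups, fell as well. Nsdhl had 9.09, 10.0 and 9.71 FPKM with inosine plus hypoxanthine, against 13.8, 15.3 and 13.8 FPKM with inosine and 14.3, 13.2 and 13.3 FPKM with glucose. Hsd17b7 had 3.67, 3.17 and 3.77 FPKM with inosine plus hypoxanthine, against 6.18, 5.58 and 5.39 FPKM with inosine and 5.16, 5.49 and 5.73 FPKM with glucose. For both, all 3 hypoxanthine libraries were under all 6 others, with log2 differences of -0.53 ± 0.07 and -0.57 ± 0.08 against inosine (limma adjusted p 0.00114 and 0.00144).

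Sqle (squalene epoxidase), Cyp51 (lanosterol demethylase), Sc5d (a sterol desaturase) and Dhcr7 (a sterol reductase of the last steps) fell by 0.35 to 0.46 on the log2 scale against inosine and by 0.33 to 0.54 against glucose. The call of Sqle against inosine (limma adjusted p 0.0415) was lost without inosine replicate 1 or 3 or any 1 of the glucose or hypoxanthine libraries, with adjusted p up to 0.133. Against glucose (adjusted p 0.0153) it was lost without glucose replicate 1 or hypoxanthine replicate 2 (0.0534 and 0.0549). That of Cyp51 against glucose (adjusted p 0.0123) was lost without hypoxanthine replicate 3 (0.0514).

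Fdft1 (squalene synthase), Tm7sf2 (a sterol reductase) and Ebp (a sterol isomerase) did not pass in either comparison. Ebp had 24.7, 26.8 and 26.0 FPKM with inosine plus hypoxanthine, against 25.1, 30.9 and 27.8 FPKM with inosine and 29.3, 25.5 and 24.9 FPKM with glucose. Its libraries overlapped in all media. The 95% intervals against inosine were -0.27 to 0.20 for Fdft1, -0.18 to 0.11 for Tm7sf2 and -0.31 to 0.11 for Ebp on the log2 scale. Fdft1 stands between Fdps and Sqle in the route, and averaged 11.7 ± 0.538 FPKM with inosine plus hypoxanthine, 12.1 ± 1.02 with inosine and 11.4 ± 1.67 with glucose (SD, n = 3 each). Whether the differences of single genes of the route differ from each other was not tested. Fdft1 overlaps Ctsb and Tm7sf2 overlaps Vps51 in the annotation, and the strand of the libraries is not given in the sources used here.

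Of the 5 genes of SREBP control and sterol transport, Insig1 alone fell in each comparison (20.0%). Among genes of at least 1 FPKM 16% fell against inosine and 15.9% against glucose, so this share is near the background. Insig1, itself a known SREBP target whose protein retains SCAP, had 25.3, 24.9 and 26.7 FPKM with inosine plus hypoxanthine, against 35.6, 30.1 and 31.8 FPKM with inosine and 34.6, 30.3 and 32.7 FPKM with glucose. The libraries with hypoxanthine lay under the lowest of the others. The log2 difference was -0.33 ± 0.08 in both comparisons (limma adjusted p 0.0197 in each). Against inosine the call was lost without hypoxanthine replicate 1 or 2 or inosine replicate 3 (0.0652, 0.0591 and 0.052), and against glucose without glucose replicate 1 or 3 or hypoxanthine replicate 1 or 2 (0.0611 to 0.0632).

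Srebf2 RNA was not called. It had 62.9, 46.6 and 59.7 FPKM with inosine plus hypoxanthine, against 59.5, 37.5 and 57.1 FPKM with inosine and 54.5, 57.3 and 52.5 FPKM with glucose. The groups overlapped, and replicate 2 of both media with inosine was the lowest, the pair of libraries with the highest mitochondrial share. The 95% interval of the difference against inosine was -0.25 to 0.55 on the log2 scale, and without those 2 libraries the difference was 0.07 (limma adjusted p 0.513). Scap and Srebf1 were low in the same 2 libraries. Scap had 22.1, 16.3 and 20.6 FPKM with inosine plus hypoxanthine, against 22.8, 15.3 and 20.9 FPKM with inosine and 21.9, 24.2 and 19.7 FPKM with glucose. Srebf1 had 26.5, 21.1 and 25.4 FPKM with inosine plus hypoxanthine, against 28.6, 20.8 and 27.3 FPKM with inosine and 27.6, 28.8 and 25.5 FPKM with glucose. Neither passed, with differences against inosine of 0.01 ± 0.16 for Scap and -0.06 ± 0.13 for Srebf1. Stard4, which carries cholesterol between membranes, averaged 19.2 ± 0.53 FPKM with inosine plus hypoxanthine, 21.6 ± 2.29 with inosine and 21.7 ± 1.19 with glucose (SD, n = 3 each), and did not pass (limma adjusted p 0.224 against inosine and 0.2 against glucose). RNA levels do not show how much SREBP protein was cleaved, which these libraries do not measure.

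Of the 5 genes that supply acetyl-CoA and NADPH or build fatty acid chains, Acss2 and Acly fell and 3 did not pass in either comparison. The shares of all genes that fell were 9.59% against inosine and 9.55% against glucose. For genes of at least 1 FPKM these shares were 16% and 15.9%. Acss2, which makes acetyl-CoA from acetate, had 1.87, 2.07 and 2.17 FPKM with inosine plus hypoxanthine, against 4.68, 3.38 and 4.28 FPKM with inosine and 4.75, 4.1 and 4.44 FPKM with glucose. Its highest library with hypoxanthine was well under the lowest of the others. The level was 2.02 times lower than with inosine and 2.18 times lower than with glucose (limma adjusted p 0.00133 and 0.000779). Acly, which makes acetyl-CoA from citrate, had 53.9, 46.6 and 53.1 FPKM with inosine plus hypoxanthine, against 75, 59.7 and 73.6 FPKM with inosine and 66.0, 70.3 and 67.9 FPKM with glucose. The groups did not overlap, and the gap to inosine replicate 2 was small. The log2 difference was -0.43 ± 0.10 against inosine and -0.41 ± 0.10 against glucose (limma adjusted p 0.0152 and 0.0198). The call against inosine was lost without hypoxanthine replicate 2 or inosine replicate 3 (0.0505 and 0.061), and that against glucose without glucose replicate 2 or 3 or hypoxanthine replicate 2 or 3 (0.0504 to 0.0655).

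Acaca, the acetyl-CoA carboxylase that commits carbon to fatty acids, and Fasn, the fatty acid synthase, did not pass. Fasn had 41.7, 31.8 and 39.4 FPKM with inosine plus hypoxanthine, against 48.6, 33.4 and 49.1 FPKM with inosine and 43.8, 49.3 and 43.9 FPKM with glucose. Its groups with and without hypoxanthine overlapped through inosine replicate 2, and did not overlap with glucose. The difference was -0.20 against inosine (95% interval -0.55 to 0.16) and -0.28 against glucose (-0.63 to 0.08), and -0.26 against inosine without the 2 libraries of high mitochondrial share (limma adjusted p 0.0617). Acaca differed by 0.03 ± 0.12 against inosine.

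Me1, the malic enzyme that yields NADPH for lipid synthesis, had few reads. It had 3, 4 and 4 reads with inosine plus hypoxanthine, against 68, 11 and 42 reads with inosine and 50, 24 and 46 reads with glucose. The libraries did not overlap in either comparison. Summed over libraries and scaled to depth, reads were 11.8 times lower than with inosine, with an exact 95% interval of 6.37 to 24.3 times that covers counting error only. On log2(FPKM + 1), which compresses low values, Me1 did not pass (limma adjusted p 0.085 against inosine and 0.0879 against glucose), and with limma voom on recovered reads the log2 difference against inosine was -3.00 (adjusted p 0.0326). Without inosine replicate 2, its lowest library, the adjusted p on log2(FPKM + 1) was 0.012. The authors' deposited table gives Me1 a log2 fold change of 3.65 for inosine over inosine plus hypoxanthine, with an adjusted p of 4.37e-05. In the authors' deposited table against inosine, and in that against glucose, 5 of the 39 genes are marked significant (Mvd, Lss, Acss2, Me1 and Scd1), beside 6.92% of all genes tested in each. The rule of that mark is not given in the sources used here. It is not the adjusted p alone, as Acat2 is not marked against inosine at the authors' adjusted p of 7.95e-25 (log2 fold change 0.879). The marked genes among the 39 had log2 fold changes of 1.01 (Mvd against inosine) or more. Fads2 was not marked against glucose at 0.98 (authors' adjusted p 9.61e-24), so the mark among these genes went with the size of the change. Between inosine and glucose the authors mark 51 genes, with 0 higher and 1 lower at an adjusted p under 0.05. At an adjusted p under 0.05 the authors' deposited table against inosine has 24 of the 39 genes lower and 2 higher, beside 11.6% and 11.1% of all genes. The authors' deposited table against glucose has 26 lower and 2 higher, beside 13.8% and 12.7% of all genes.

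**Figure D3:**
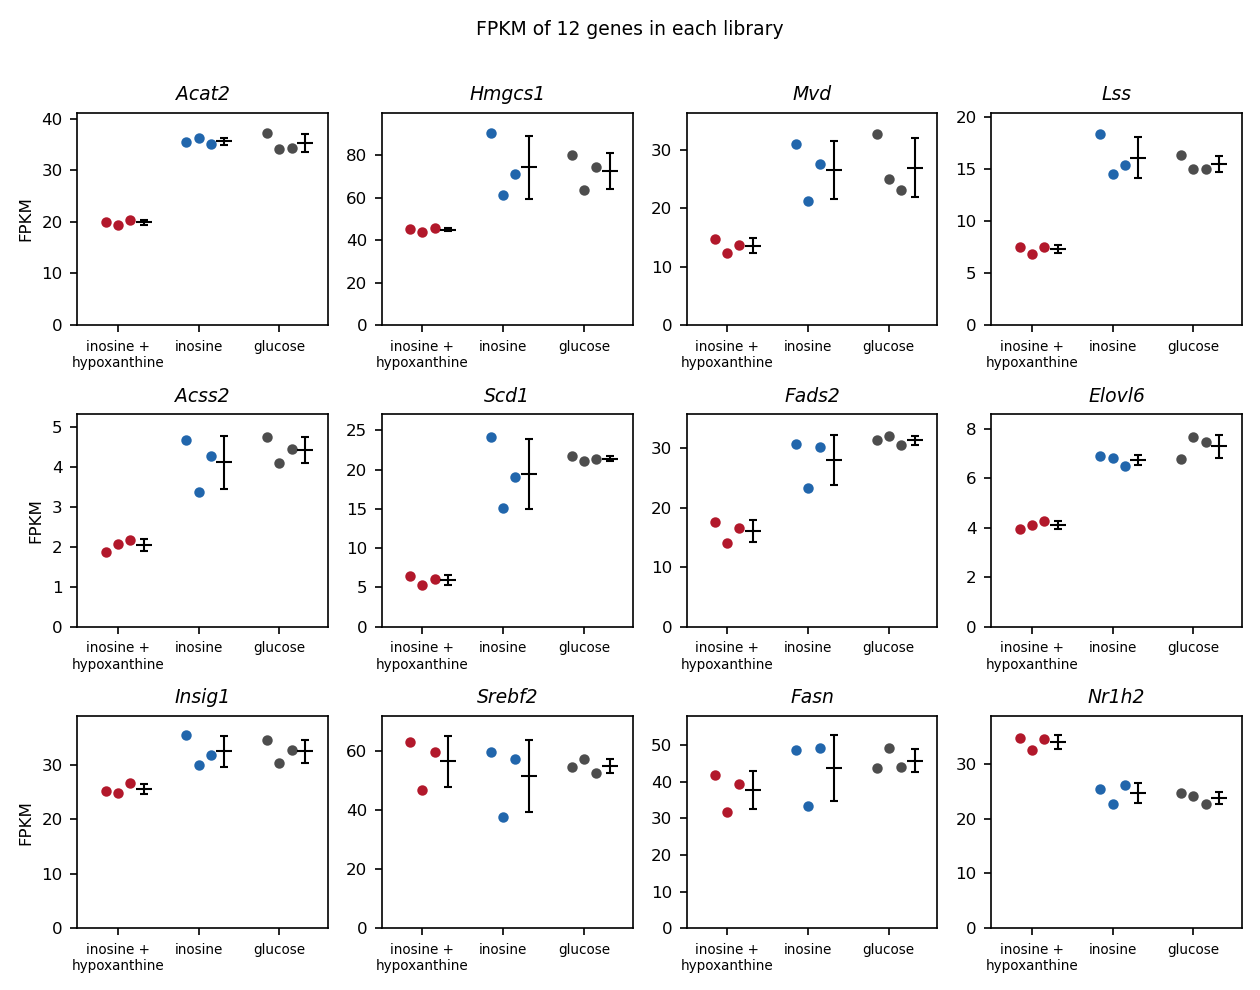
FPKM (vertical axes from 0) of 12 genes in each library of inosine plus hypoxanthine, inosine and glucose; points are libraries, and the bars beside them are the mean with its SD (n = 3). In the first 9 panels and in Nr1h2 the 3 libraries with hypoxanthine stand apart from the 6 others, below them for 9 genes and above them for Nr1h2, while those of Srebf2 and Fasn overlap with inosine.

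Desaturases place double bonds in fatty acids and elongases lengthen them. Here 5 of 7 genes fell against inosine, beside 9.59% of all genes, while Elovl5 rose and Fads1 did not pass. Against glucose 4 fell, beside 9.55% of all genes, while Elovl5 rose and 2 did not pass. Scd1, a stearoyl-CoA desaturase that makes oleate and palmitoleate (chr19:44394450-44407709), had the largest difference of the 39 genes on the log2(FPKM + 1) scale, while Me1, with few reads, was larger as a ratio. Scd1 had 6.48, 5.27 and 6.06 FPKM with inosine plus hypoxanthine, against 24.1, 15.1 and 19.1 FPKM with inosine and 21.7, 21.1 and 21.4 FPKM with glucose. Its hypoxanthine libraries were far under all others. FPKM was 3.27 times lower than with inosine and 3.6 times lower than with glucose (log2 difference -1.54 ± 0.14 and -1.69 ± 0.14, limma adjusted p 0.000212 and 0.000144).

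Scd2, the similar desaturase 87585 bases away on chromosome 19 (chr19:44293676-44306864), was the more abundant per length. Scd2 had 97.8, 82.9 and 98.1 FPKM with inosine plus hypoxanthine, against 174.3, 110.6 and 134.5 FPKM with inosine and 151.7, 155.2 and 154.6 FPKM with glucose. The groups did not overlap, with inosine replicate 2 nearest. The log2 difference was -0.56 ± 0.15 against inosine (limma adjusted p 0.0262) and -0.73 ± 0.15 against glucose (adjusted p 0.0091). Against inosine the call was lost without inosine replicate 3 or any 1 hypoxanthine library (0.0573 to 0.0872).

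As a ratio, Scd1 over Scd2 was 0.0663, 0.0636 and 0.0618 with inosine plus hypoxanthine, against 0.138, 0.136 and 0.142 with inosine and 0.143, 0.136 and 0.138 with glucose. Both genes were low in inosine replicate 2, and the ratio in that library was like that of the others. The other copies, Scd3 and Scd4, reached at most 0.0751 and 0.0897 FPKM in a library.

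Fads2, which starts the desaturation of polyunsaturated fatty acids (chr19:10062765-10101503), had 17.6, 14.1 and 16.6 FPKM with inosine plus hypoxanthine, against 30.6, 23.2 and 30.1 FPKM with inosine and 31.3, 32 and 30.5 FPKM with glucose. No library with hypoxanthine reached the others. Its log2 difference was -0.76 ± 0.12 against inosine and -0.92 ± 0.12 against glucose (limma adjusted p 0.0024 and 0.000953). Fads1, the desaturase of a later step and a neighbour 81373 bases away (chr19:10182877-10196874), had 11.1, 9.53 and 11.1 FPKM with inosine plus hypoxanthine, beside the inosine and glucose values already given. It was within the range of the inosine libraries for the most part, and did not pass, with a difference of 0.07 (95% interval -0.14 to 0.29) against inosine and -0.14 (-0.36 to 0.08) against glucose. Fads2 over Fads1 was 1.59, 1.48 and 1.5 with inosine plus hypoxanthine, against 2.75, 2.65 and 2.98 with inosine and 2.77, 2.57 and 2.67 with glucose.

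Elovl6, which lengthens palmitate to stearate, had 3.94, 4.1 and 4.29 FPKM with inosine plus hypoxanthine, against 6.91, 6.81 and 6.51 FPKM with inosine and 6.78, 7.66 and 7.45 FPKM with glucose. The 3 libraries of each medium were tight and those with hypoxanthine stood apart. The log2 difference was -0.60 ± 0.07 against inosine and -0.70 ± 0.07 against glucose (limma adjusted p 0.000459 and 0.000222). Elovl5, an elongase of polyunsaturated fatty acids, rose instead. Elovl5 had 36.0, 36.4 and 36.7 FPKM with inosine plus hypoxanthine, against 30.5, 33.0 and 29.5 FPKM with inosine and 28.6, 31.0 and 30.5 FPKM with glucose. The gain was 17.4% against inosine and 21.2% against glucose (limma adjusted p 0.035 and 0.0177). The call against inosine was lost without inosine replicate 1 or 3, glucose replicate 3 or any 1 hypoxanthine library (0.0574 to 0.118), and that against glucose without glucose replicate 1 or hypoxanthine replicate 3 (0.0532 and 0.0658).

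Elovl6 over Elovl5 was 0.109, 0.113 and 0.117 with inosine plus hypoxanthine, against 0.226, 0.207 and 0.221 with inosine and 0.238, 0.247 and 0.245 with glucose. These 3 pairs were set side by side after their values were seen, and their ratios are given with no test. Elovl1, an elongase of very long chains, averaged 30.1 ± 3.05 FPKM with inosine plus hypoxanthine, 42.4 ± 1.9 with inosine and 39.1 ± 6.1 with glucose (SD, n = 3 each). Its call against inosine (limma adjusted p 0.0166) was lost without hypoxanthine replicate 1 or 2 or inosine replicate 3 (0.0573 to 0.0632), and without both libraries of high mitochondrial share (0.0833).

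**Figure D4:**
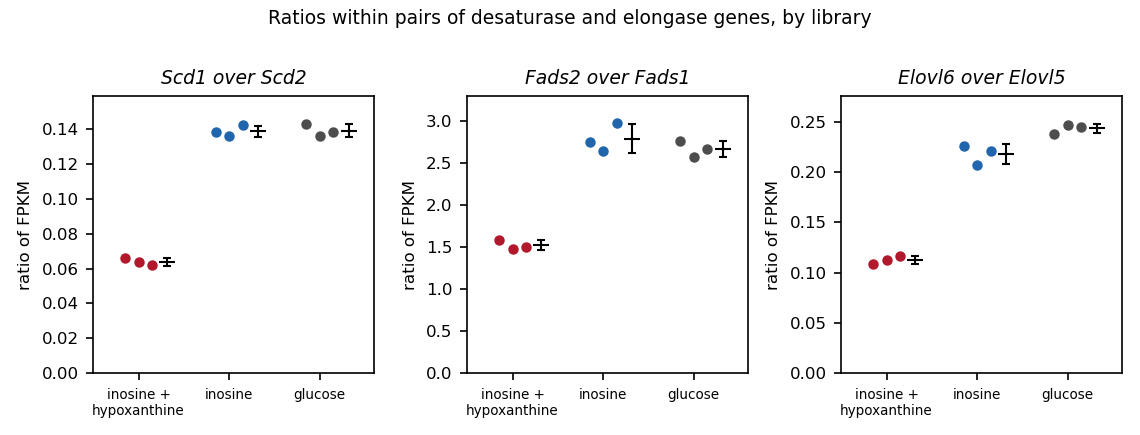
Ratio of FPKM (vertical axes from 0) within 3 pairs of genes in each library of inosine plus hypoxanthine, inosine and glucose; points are libraries and bars are the mean with its SD (n = 3). Scd1 over Scd2 was 0.0618 to 0.0663 with hypoxanthine and 0.136 to 0.143 in the 6 other libraries, and the other pairs were likewise lower in each library with hypoxanthine.

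On the LXR side 2 of 4 genes rose against inosine, beside 11.7% of all genes and 16.9% of those of at least 1 FPKM. Against glucose 1 of the 4 rose, beside 10.8% and 15%. Nr1h2, which encodes LXR beta, the widely expressed LXR receptor, had 34.8, 32.5 and 34.6 FPKM with inosine plus hypoxanthine, against 25.4, 22.6 and 26.1 FPKM with inosine and 24.6, 24.1 and 22.6 FPKM with glucose. All 3 libraries with hypoxanthine were above all others. The gain was 37.4% against inosine and 43.1% against glucose (limma adjusted p 0.00299 and 0.00179). Abcg1, a cholesterol exporter and known LXR target, had 1.6, 1.3 and 1.61 FPKM with inosine plus hypoxanthine, against 1.06, 0.942 and 1.04 FPKM with inosine and 0.985, 1.39 and 1.16 FPKM with glucose. It was above inosine in all 3 libraries and overlapped with glucose through glucose replicate 2. Against inosine its adjusted p was 0.0289 in limma, and the call was lost without any 1 of the inosine libraries (0.0504 to 0.0726) or hypoxanthine replicate 1 or 3 (0.0952 and 0.106). Against glucose Abcg1 did not pass (adjusted p 0.131).

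Abca1, the other main exporter, rested on 43, 43 and 28 reads with inosine plus hypoxanthine, against 23, 37 and 19 reads with inosine and 11, 24 and 37 reads with glucose. On log2(FPKM + 1), which compresses low values, Abca1 did not pass in either comparison. Its reads scaled to depth were 1.35 times those with inosine (exact 95% interval 1.00 to 1.82) and 1.48 times those with glucose (1.09 to 2.01). These intervals cover counting error only. Mylip, an LXR target whose protein removes lipoprotein receptors, was likewise low. Mylip had 0.517, 0.544 and 0.665 FPKM with inosine plus hypoxanthine, against 0.595, 0.687 and 0.48 FPKM with inosine and 0.591, 0.555 and 0.649 FPKM with glucose. The media overlapped, and the difference against inosine was -0.01 ± 0.07 on the log2 scale.

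Summed over a role, the 7 mevalonate genes gave 253.2 to 259.8 FPKM per library with inosine plus hypoxanthine, against 373.1 to 433.1 with inosine and 358.4 to 430.9 with glucose. The 11 genes from squalene on gave 172.9 to 178.1 FPKM with inosine plus hypoxanthine, against 232.2 to 250.2 with inosine and 217.4 to 254.5 with glucose. For both sums no library with hypoxanthine reached the others, and those 3 libraries lay closer together. The 5 control and transport genes gave 127.9 to 155.4 FPKM with inosine plus hypoxanthine, against 124.6 to 170.7 with inosine and 153.1 to 161.0 with glucose. These last ranges overlapped, and their lowest values were in the libraries of high mitochondrial share. The 5 genes of acetyl-CoA, NADPH and fatty acid synthesis gave 90.7 to 109.8 FPKM with inosine plus hypoxanthine. They overlapped inosine (105.7 to 141.5) and not glucose (126.0 to 135.9). The 7 desaturases and elongases gave 180.5 to 206.4, below inosine (238.2 to 319.4) and glucose (289.9 to 297.1). The 4 LXR and export genes gave 34.4 to 37.0, above inosine (24.3 to 27.7) and glucose (24.4 to 26.2).

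Another 54 genes of the same biology were taken from 4 lists. Against inosine 9 fell (16.7%), 6 rose (11.1%) and 39 did not pass, with a median log2 difference of 0.00. Of all genes 9.59% fell and 11.7% rose, and of those of at least 1 FPKM 16% and 16.9%, so these shares are near the background and are no result about the lists. Against glucose 8 fell (14.8%) and 6 rose (11.1%), beside 9.55% and 10.8% of all genes. With inosine against glucose 0 of the 54 passed in limma, and 1 had an unadjusted p under 0.05, and 0 passed with limma voom. Tmem97, a sterol-responsive membrane protein, fell in both comparisons (limma adjusted p 0.000321 against inosine and 0.000928 against glucose) and was at 42.2 ± 2.18 FPKM with inosine plus hypoxanthine, 77.3 ± 8.35 with inosine and 68.6 ± 3.12 with glucose (SD, n = 3 each).

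Among 11 genes of uptake, storage and transport, Soat2 fell (9.09%, beside 9.59% of all genes) and Gramd1b and Npc2 rose (18.2%, beside 11.7%) against inosine, shares near the background of expressed genes. Soat2, an enzyme that esterifies cholesterol for storage, had 2.31, 2.23 and 2.8 FPKM with inosine plus hypoxanthine, against 6.69, 7.97 and 6.59 FPKM with inosine and 6.39, 7.02 and 6.8 FPKM with glucose. Gramd1b, whose protein carries cholesterol from the plasma membrane to the endoplasmic reticulum, had 34.8, 34.4 and 37.5 FPKM with inosine plus hypoxanthine, against 18.8, 16.1 and 17.6 FPKM with inosine and 18.2, 16.8 and 17.9 FPKM with glucose. In both genes the libraries with hypoxanthine stood far from the 6 others, 2.9 times lower for Soat2 and 2.03 times higher for Gramd1b than with inosine (limma adjusted p 7.38e-05 and 7.18e-05). Npc2, a cholesterol carrier of the lysosome, differed by 0.48 ± 0.09, and Gramd1a, a relative of Gramd1b, by 0.28 ± 0.09 without passing (limma adjusted p 0.0652).

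Of 25 genes of fatty acid and lipid metabolism 5 fell against inosine (20.0%, beside 9.59% of all genes and 16% of those of at least 1 FPKM) and 20 did not pass. Acsl3 and Acsl1, which activate long-chain fatty acids, differed by -0.55 ± 0.07 and -0.52 ± 0.08, and Fabp5, a fatty acid carrier, by -0.41 ± 0.09, while Acsl5 did not pass at 0.14 ± 0.08. The other 2 that fell were Aacs and Dgat2. Of 9 LXR targets and partners 4 rose (44.4%, beside 11.7% of all genes and 16.9% of those of at least 1 FPKM) and 1 fell (11.1%, beside 9.59% and 16%). Abca7, a lipid transporter, differed by 0.74 ± 0.07 and Rxrb, a partner of LXR, by 0.48 ± 0.09. The other 2 that rose were Rxra, also a partner, and Apoe. The list joins partners with targets, so its share is not one of LXR targets. Lpcat3, a phospholipid-remodelling enzyme and known LXR target, fell, with a log2 difference of -0.40 ± 0.07 (limma adjusted p 0.00361). Arl4c was also lower, with no overlap of libraries, and did not pass (-0.43 ± 0.16, limma adjusted p 0.0938). Aacs, Dgat2, Rxra, Apoe and Arl4c were named after their values were seen.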

How the data were processed

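RNA-seq tables of 9 libraries were used, 3 per medium. The tools named per the submitters' processing notes are featureCounts with Subread 2.0.1, HISAT2, and DESeq2 1.38.3, and the genome is mm10; the part of each tool and the strand are not given in the sources used here. FPKM of each gene in each library was made by the authors. The tables also hold a deposited signal per medium, whose values behave as the mean of reads divided by a size factor. The authors' log2 fold changes, deposited in the same tables, are given as control over hypoxanthine where hypoxanthine was tested. The p-values beside them were also made by the authors. No sample was dropped, and files held 0 columns of other samples.

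The test was limma 3.58.1 (R 4.3.3, trend and robust) with a mean per medium, fitted to log2(FPKM + 1) over 20618 genes in all 9 libraries. Fold changes of low genes are understated on that scale. Calls needed an adjusted p (Benjamini-Hochberg, over all genes) under 0.05, with no filter. Fold ratios are ratios of mean FPKM. Whole reads were recovered for all 20618 genes by solving the deposited means of each medium for whole numbers, and were used for depth, counting intervals and limma voom. The fits were tested on simulated data. Coordinates and promoters are those of RefSeq on GRCm38.p6 (mm10).

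The genes, roles and lists were chosen with earlier results of these data known. FPKM per library is given for the called genes of a role, at most the 4 of largest difference, and for its most abundant gene that was not called; Scap, Srebf1, Elovl5, Me1 and Abca1 were added after their values were seen. Of each list of other genes, the 2 of smallest adjusted p against inosine and the 2 of highest FPKM are named, except 1 that is not reported here. Other settings tried were pseudocounts, scaling, filters, voom, single libraries left out and replicate blocks.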

Additional observations from a re-analysis of the deposited data

How the results depend on the processing

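Over 19 other settings, 0 of the calls of the 39 genes changed direction. With hypoxanthine against inosine 17 of the 25 called genes passed in every setting, and against glucose 15 of 24. Without single libraries, 16 to 24 genes fell and 1 to 3 rose against inosine; 1 rose without inosine replicate 1 or 3 or hypoxanthine replicate 1 or 3. Against glucose 17 to 23 fell and 1 to 2 rose; 1 rose without glucose replicate 1 or hypoxanthine replicate 3. Other settings, replicate blocks included, gave 20 to 24 lower against inosine and 15 to 24 against glucose. Calls over all genes in those settings ran from 3576 to 4645 against inosine and from 2110 to 4571 against glucose. Over all genes, single libraries left out gave 2757 to 4487 calls against inosine (4382 with all 9), 2677 to 4879 against glucose (4192 with all 9) and 1 to 7 between inosine and glucose (2 with all 9). The fewest against inosine came without hypoxanthine replicate 3. Between inosine and glucose 0 genes passed with a mean of at least 1 FPKM, without trend and robust, with voom and with only the libraries compared, and 1 without both libraries of high mitochondrial share. The cause was not tested. Me1 and Abca1 rest on few reads, which limits them.

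Same-numbered libraries of inosine and hypoxanthine deviated together in part (correlations 0.411, 0.635 and 0.0177). Those of glucose and inosine were mixed (0.404, 0.264 and -0.27), and those of glucose and hypoxanthine did not deviate together (0.0847, -0.201 and -0.0629). As these were not alike over the media, the numbers were not taken to pair samples in the main fit. With a replicate block over all libraries 24 genes fell and 2 rose against inosine, 23 and 2 against glucose, and 1 gene of all passed between inosine and glucose. With the block and only the libraries compared, 15 of the 39 fell and 1 rose against glucose, with 2110 calls over all genes, and 0 genes passed between inosine and glucose.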

Other observations

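FPKM and recovered reads did not move together equally for all 39 genes. The SD over libraries of log2 FPKM over depth-scaled reads was 0.186 for Me1, which had as few as 3 reads in a library, 0.125 for Elovl1, 0.0816 for Dhcr7, 0.0733 for Sc5d and 0.0536 for Pmvk, against a median of 0.00337 and a 95th percentile of 0.0746 over 5304 genes with over 1000 reads in each library. Elovl1 overlaps the cell-cycle gene Cdc20 in the annotation. With limma voom on recovered reads, Elovl1 fell by 0.34 on the log2 scale against glucose (adjusted p 0.013), where it did not pass on log2(FPKM + 1). Pmvk had a log2 difference of -0.30 against inosine with voom and did not pass (adjusted p 0.0741). The source of these gaps was not tested.

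Several overlapping annotated genes touch the 39 genes, 18 of them having at least 1 such neighbour in RefSeq and 10 having 1 that was itself measured. Among these, Srebf1 overlaps Rai1, Acaca overlaps Tada2a, Lss overlaps 4930483K19Rik and Acss2 overlaps Acss2os. Reads that fall in bases shared by such a pair may not be told apart here, as the strand of the libraries is not given. How many reads this concerns was not tested.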
